A study of Homo sapiens with 6 samples.

Results

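Most kinesin motors are encoded by genes with a KIF symbol. The members were taken as every gene of the array's annotation whose symbol starts with KIF followed by a digit or by C, on probe sets with exactly 1 symbol. This gave 42 of the 18132 genes tested. CENPE, a mitotic kinesin without a KIF symbol, is therefore not in the class counts and is given with the mitotic partners. Where several probe sets carried a symbol, the one brightest on average across the 6 arrays stood for the gene. Of the 42 genes, 41 were motor genes, and the other was KIF25-AS1, an antisense RNA that codes for no motor. By their known roles, 14 motor genes were placed among the mitotic kinesins, 15 among the transport kinesins and 12 among kinesins of the cilium, of microtubule regulation and of other or little-known function. No filter on dim genes was applied, so all 42 genes were tested.

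Kinesins bind microtubules through a conserved motor domain and use ATP either to step along them or to take subunits off their ends. In dividing cells, mitotic kinesins push the spindle poles apart, move chromosomes, trim microtubule ends and build the midzone at which the cell divides. Between divisions, transport kinesins carry vesicles, lysosomes, mitochondria, endosomes and the parts of cilia, mostly towards the cell periphery. Many mitotic kinesin genes are transcribed late in the cell cycle, whereas most transport kinesin genes are not tied to it.

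RNA came from 786-O, a line grown from a human clear cell carcinoma of the kidney, and was hybridised to 6 single-colour Affymetrix arrays. In 3 of these the cells carried, delivered by lentivirus, a short hairpin RNA (shRNA) against PLEKHO1 (shPLEKHO1), and the other 3 held the control, shNC. The titles and the genotype field give shNC as control, whereas the treatment protocol, worded alike for all 6 samples, names only the shRNA against PLEKHO1. The groups follow the titles, and every difference below rests on them. PLEKHO1, also called CKIP-1, is a pleckstrin homology domain protein that binds casein kinase 2. The question is how kinesin transcripts differ between these knockdown and control cells. The labels name 1 shRNA target and 1 cell line, and they do not say whether replicates came from separate cultures. The p-values therefore reflect only how far these arrays spread, which may be technical.

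Median intensity per array lay between 55.7 and 57.1, and log2 values correlated at 0.998 to 0.999 within groups and at 0.989 to 0.990 between groups. PLEKHO1 itself was at 110.3, 116 and 97.4 on the shPLEKHO1 arrays, against 135, 143 and 126 on the shNC arrays, without overlap (log2 difference of -0.32 ± 0.08, limma adjusted p = 0.0123, and p = 0.1 in the exact two-sided permutation test, the smallest p that 3 against 3 arrays allow). All 7 measured markers of renal carcinoma cells, such as VIM, KRT8, PAX2 and PAX8, had a mean intensity above the median of all genes (81.7), and 3 of them rose and 2 fell, with log2 differences from -0.33 to 0.54. All 5 markers of blood, endothelium and liver, such as PTPRC and ALB, lay below it, and 0 of them passed in limma. CA9 was not analysed here. Intensities below are the deposited linear values, which differ between probe sets for reasons other than expression. Group differences are taken within a probe set. Brightness against the median of all genes compares probe sets and is only a rough guide. The probe sets read for KIF2A, KIF2B, KIF5C, KIF15, KIF21A, KIF22, KIF27 and KIFC3 carry a suffix that marks possible matches to transcripts of other genes. Log2 differences subtract the shNC mean from the shPLEKHO1 mean of quantile-normalized log2(intensity + 1), with their SE (n = 3 per group). A gene is said to have risen, fallen or changed where its limma p, adjusted over all genes tested, was under 0.05.

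Kinesin genes moved in both directions with shPLEKHO1. More mitotic kinesins fell than rose and more transport kinesins rose than fell, a difference between classes that was not itself tested. Some of these calls were unstable, and 6 mitotic and 6 transport calls held in all 16 alternative analyses. The held mitotic calls were falls of KIF14, KIF15, KIFC1 and KIF11 and rises of KIF2A and KIF18A. The held transport calls were rises of KIF16B, KIF1C, KIF13A and KIF3A and falls of KIF5B and KIF3C. Of the 41 motor genes, 11 rose and 11 fell, and 19 did not pass. These 22 changed genes were 53.7% of the motor genes, beside 34.1% of all genes tested. Among all genes, 18.1% rose and 16% fell. The 3 values of each group did not overlap on the log2 scale in 22 motor genes, beside 45.0% of all genes tested. The median log2 difference of the motor genes was -0.0024, close to the 0.01 of all genes, and the range ran from -0.95 (KIF14) to 0.72 (KIF2A). The median absolute log2 difference was 0.17 for motor genes and 0.12 for all genes. With an absolute log2 difference of at least 0.5, 2 motor genes fell and 4 rose, where 5.29% of all genes fell and 4.49% rose by that much (9.78% together). Of the 28 motor genes above the median intensity of all genes, 7 rose and 11 fell, where 29.9% and 25.6% of all genes of that brightness did (55.5% together). Of the 101 probe sets of motor genes, 19 rose and 20 fell, beside 17.3% and 15.7% of the 44988 probe sets tested (33.0% together). KIF25-AS1, on its brightest of 4 probe sets, was at -0.11 (limma adjusted p = 0.467).

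**Figure D1:**
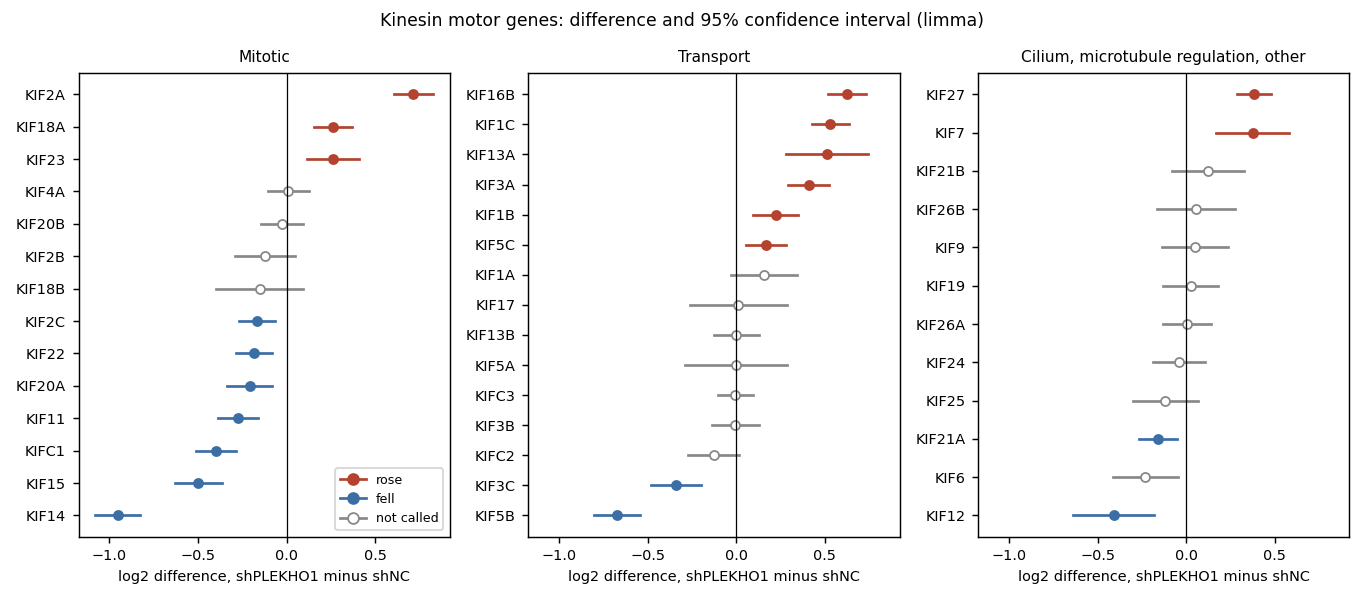
Log2 difference (shPLEKHO1 minus shNC, horizontal axis) of each kinesin motor gene, in 3 panels by class and sorted within each, with points for the estimate and lines for its 95% confidence interval in limma (3 arrays per group). Filled points passed an adjusted p of 0.05. The mitotic panel runs from -0.95 (KIF14) to 0.72 (KIF2A) with 7 genes that fell and 3 that rose, and the transport panel from -0.67 (KIF5B) to 0.62 (KIF16B) with 2 that fell and 6 that rose.

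Among the mitotic kinesins, 7 of 14 fell, 3 rose and 4 did not pass, with a median log2 difference of -0.16. Those that fell were KIF14, KIF15, KIFC1, KIF11, KIF20A, KIF22 and KIF2C, and those that rose were KIF2A, KIF18A and KIF23. In these bulk RNA samples, fewer cells in mitosis and less kinesin RNA per cell cannot be told apart. The median was -0.17 for the 13 mitotic kinesins above the median intensity of all genes, all of them but KIF2B, and these 13 held all 10 changed genes, where 55.5% of all genes of that brightness changed.

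KIF14 had the largest difference of all kinesins. It is a motor of the midzone and midbody that helps to complete cytokinesis. Its intensity was 145, 144 and 154 on the shPLEKHO1 arrays, against 301, 277 and 289 on the shNC arrays. Every shPLEKHO1 array read below every shNC array, and the group mean was 1.94 times lower (log2 difference of -0.95 ± 0.05, limma adjusted p = 1.02e-05). The other probe set of KIF14 fell too, at -0.81 ± 0.07.

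KIF11, KIF15 and KIFC1 fell as well. KIF11, also called Eg5, slides antiparallel microtubules apart to separate the spindle poles. It was at 697, 669.8 and 685 on the shPLEKHO1 arrays, against 868, 807 and 799.7 on the shNC arrays, so that all 3 shPLEKHO1 arrays lay below all shNC arrays (log2 difference of -0.27 ± 0.05, limma adjusted p = 0.0032). Its other probe set did not pass (-0.08 ± 0.05), and the mean of both was at -0.18. KIF15, a motor that can stand in for KIF11 at the spindle, averaged 145 ± 5.62 with shPLEKHO1 and 207 ± 12.4 with shNC (SD, n = 3), a log2 difference of -0.50 ± 0.06 (limma adjusted p = 0.000316). KIFC1, also called HSET, walks towards microtubule minus ends and gathers them at the poles, and cancer cells with extra centrosomes are known to depend on it. KIFC1 averaged 276 ± 14.7 with shPLEKHO1 and 367 ± 18.2 with shNC (SD, n = 3), a log2 difference of -0.40 ± 0.05 (limma adjusted p = 0.00044). For KIF11, KIF15 and KIFC1, as for KIF14, the call held in all 16 alternative analyses.

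Smaller falls were read for motors of the chromosomes and of the midzone, and their calls were less stable. KIF2C, also called MCAK, takes apart microtubule ends at the centromere. It was at 1382, 1459.95 and 1428 on the shPLEKHO1 arrays, against 1675, 1512 and 1561 on the shNC arrays, with the nearest arrays of the groups close to each other (log2 difference of -0.17 ± 0.04, limma adjusted p = 0.0223). The other probe set of KIF2C did not pass (-0.15 ± 0.05). KIF20A brings the chromosomal passenger complex to the midzone. It was at 551, 589 and 585 on the shPLEKHO1 arrays, against 729, 620.3 and 643 on the shNC arrays, where shNC replicate 1 stood above the other 2 control arrays (log2 difference of -0.21 ± 0.05, limma adjusted p = 0.0196). KIF22, also called Kid, pushes chromosome arms away from the poles. It averaged 451 ± 6.92 with shPLEKHO1 and 513 ± 14.8 with shNC (SD, n = 3), a log2 difference of -0.18 ± 0.04 (limma adjusted p = 0.0131), and 1 of its 3 probe sets fell while the other two did not pass. In limma, KIF2C did not pass without shPLEKHO1 replicate 1 (adjusted p = 0.0729) or 3 (0.0588), or without shNC replicate 1 (0.0645) or 3 (0.0657). KIF20A did not pass without shPLEKHO1 replicate 1 (0.0666) or shNC replicate 1 (0.0533), and KIF22 did not without shNC replicate 3 (0.0521), all limma adjusted p. Median centring in place of quantile normalization also ended the calls of KIF2C (limma adjusted p = 0.136) and KIF20A (0.0847).

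KIF2A went the other way. Like KIF2C it removes subunits from microtubule ends, but it does so mainly at the spindle poles, and it also acts outside mitosis, for example in neurons. Its intensity was 340.4, 375 and 347 on the shPLEKHO1 arrays, against 214, 216 and 219 on the shNC arrays, with the 3 control arrays within a few units of each other and far below every shPLEKHO1 array (log2 difference of 0.72 ± 0.05, limma adjusted p = 2.24e-05). A further probe set rose as well (0.62 ± 0.06), and the dimmest did not pass (0.31 ± 0.14).

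KIF18A and KIF23 rose by smaller amounts. KIF18A shortens the microtubules attached to chromosomes and thereby dampens their movement at the spindle equator. It averaged 402 ± 7.82 with shPLEKHO1 and 336 ± 16.3 with shNC (SD, n = 3), a log2 difference of 0.26 ± 0.05 (limma adjusted p = 0.00284). KIF23, also called MKLP1, is the motor of centralspindlin, the complex that bundles the midzone and directs the cleavage furrow. It averaged 537 ± 34.2 with shPLEKHO1 and 448 ± 42.7 with shNC (SD, n = 3), a log2 difference of 0.26 ± 0.06 (limma adjusted p = 0.0141). Its other probe set did not pass (0.18 ± 0.07), and in limma the call was lost without shNC replicate 2 (adjusted p = 0.0521) or 3 (0.0557).

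The 4 mitotic kinesins that did not pass had different precision. KIF4A, a chromosome-bound motor that also limits the length of midzone microtubules, was at 487 ± 28.6 with shPLEKHO1 and 482 ± 5.67 with shNC (SD, n = 3), and the 95% confidence interval of its log2 difference ran from -0.11 to 0.13. A probe set shared by KIF4A and its retrogene KIF4B, left out of the test because it carries both symbols, was at -0.03. KIF20B, which acts at the midbody, had an interval from -0.14 to 0.09. KIF18B, which shortens microtubules from their plus ends, had a wide interval from -0.40 to 0.09, and 0 of its 4 probe sets passed in limma. KIF2B, at low intensity, averaged 10.2 ± 0.543 with shPLEKHO1 and 11.1 ± 0.991 with shNC (SD, n = 3).

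**Figure D2:**
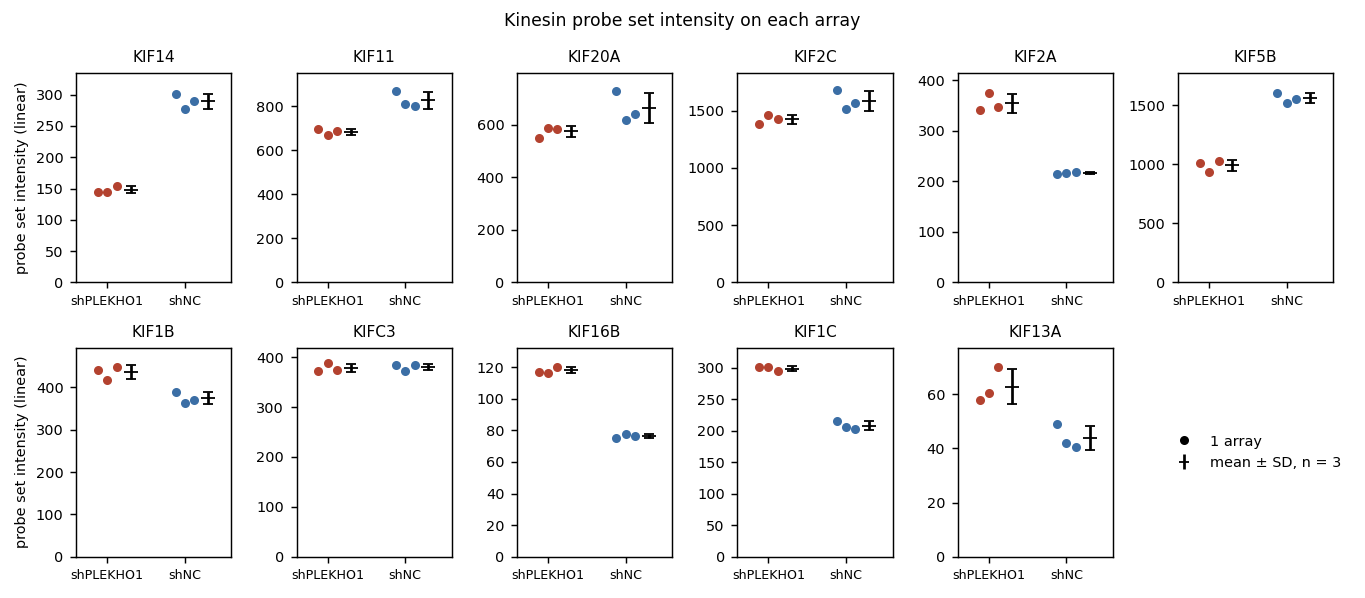
Deposited probe set intensity (linear vertical axis from 0) of 11 kinesin genes on each array, with shPLEKHO1 left of shNC, points for arrays and bars for mean ± SD (n = 3). The groups stand apart in KIF14, KIF11, KIF2A, KIF5B, KIF16B, KIF1C, KIF13A and KIF1B, lie close together in KIF20A and KIF2C, and overlap in KIFC3.

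The promoters of the mitotic kinesins were compared because genes of this class are known to share short regulatory letters, and because the class here held genes that fell, rose and did not pass. Sequences are from RefSeq (GRCh38.p14), in windows from 250 bases before to 50 bases from the start of transcription. A window was found for 33 of the 41 motor genes, and KIF5A, KIF13B, KIF19, KIF21B, KIF26B, KIF27, KIFC2 and KIFC3 had none. Searches on both strands used 2 motifs. TTTGAA is the core of the cell cycle homology region (CHR), the element through which the DREAM and MuvB complexes act on late cell cycle genes. CCAAT is the box bound by nuclear factor Y. In the kinesin windows, 0 matches of these motifs overlapped each other. Below, capitals mark the matches on either strand, so that TTCAAA and ATTGG are matches on the opposite strand, and each window runs 5′ to 3′ on the gene's strand from 110 bases before the start (160 for KIF5B) to 50 bases from it.
KIF14 (chr1:200620702-200620861, minus strand): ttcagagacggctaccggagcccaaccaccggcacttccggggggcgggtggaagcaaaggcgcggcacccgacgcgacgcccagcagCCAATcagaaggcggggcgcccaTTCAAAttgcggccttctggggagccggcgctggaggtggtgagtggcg
KIF15 (chr3:44761684-44761843, plus strand): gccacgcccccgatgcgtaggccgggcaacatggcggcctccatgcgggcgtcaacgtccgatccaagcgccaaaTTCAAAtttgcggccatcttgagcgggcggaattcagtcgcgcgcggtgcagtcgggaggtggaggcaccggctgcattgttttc
KIFC1 (chr6:33391713-33391872, plus strand): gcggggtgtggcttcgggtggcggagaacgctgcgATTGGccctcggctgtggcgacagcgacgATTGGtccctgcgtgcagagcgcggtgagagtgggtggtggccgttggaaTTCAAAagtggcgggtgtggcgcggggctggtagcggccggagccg
KIF11 (chr10:92593020-92593179, plus strand): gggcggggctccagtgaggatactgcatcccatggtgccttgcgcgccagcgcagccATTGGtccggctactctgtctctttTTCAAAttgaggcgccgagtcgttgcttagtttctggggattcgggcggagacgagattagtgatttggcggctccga
KIF18A (chr11:28108107-28108266, minus strand): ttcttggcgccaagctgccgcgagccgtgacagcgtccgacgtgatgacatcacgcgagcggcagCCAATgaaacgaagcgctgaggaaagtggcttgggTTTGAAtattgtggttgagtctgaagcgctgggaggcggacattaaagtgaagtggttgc
KIF23 (chr15:69414239-69414398, plus strand): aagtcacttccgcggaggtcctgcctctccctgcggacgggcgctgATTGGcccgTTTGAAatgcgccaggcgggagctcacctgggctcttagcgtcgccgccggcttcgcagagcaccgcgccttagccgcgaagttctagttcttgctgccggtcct
KIF4A (chrX:70289994-70290153, plus strand): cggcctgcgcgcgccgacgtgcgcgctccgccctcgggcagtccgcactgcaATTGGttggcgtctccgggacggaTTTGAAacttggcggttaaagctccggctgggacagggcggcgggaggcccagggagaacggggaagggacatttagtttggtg
KIF2A (chr5:62306096-62306255, plus strand): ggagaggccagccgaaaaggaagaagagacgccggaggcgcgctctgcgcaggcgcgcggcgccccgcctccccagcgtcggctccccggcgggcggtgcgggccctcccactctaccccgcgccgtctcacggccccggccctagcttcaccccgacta
KIF5B (chr10:32056376-32056585, minus strand): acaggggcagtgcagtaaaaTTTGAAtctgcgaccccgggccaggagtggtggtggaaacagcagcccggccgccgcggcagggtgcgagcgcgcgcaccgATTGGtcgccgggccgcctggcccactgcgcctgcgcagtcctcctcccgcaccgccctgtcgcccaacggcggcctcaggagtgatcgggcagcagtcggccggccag
KIF16B (chr20:16573399-16573558, minus strand): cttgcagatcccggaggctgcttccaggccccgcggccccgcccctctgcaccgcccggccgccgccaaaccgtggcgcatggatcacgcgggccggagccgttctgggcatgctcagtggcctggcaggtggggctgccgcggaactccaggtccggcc
The first 4 windows belong to mitotic kinesins that fell, KIF18A and KIF23 rose, KIF4A did not pass, and KIF2A, which rose, is shown as a mitotic kinesin with no match. KIF5B and KIF16B are the transport kinesins with the largest fall and the largest rise.

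TTTGAA was found in the windows of 9 of 14 mitotic kinesins (64.3%), in 1 of 11 transport kinesins (9.09%) and in 0 of 8 others, beside 15.9% of the 14425 tested genes with a window and 15.2% of all 35116 windows. CCAAT was found in 10 of 14 mitotic kinesins (71.4%) and 4 of 11 transport kinesins (36.4%), beside 42.4% of tested genes and 34.6% of windows. Both motifs stood in the same window in 8 of 14 mitotic kinesins (57.1%), beside 6.67% of tested genes and 5.9% of windows. The letters stood in windows of genes that fell, rose and did not pass. TTTGAA was present in 4 of the 7 mitotic kinesins that fell (KIF14, KIF15, KIFC1 and KIF11). It was present in 2 of the 3 that rose (KIF18A and KIF23) and in 3 of the 4 that did not pass (KIF4A, KIF18B and KIF20B). In KIF23 the CCAAT match began 64 bases and the TTTGAA match 55 bases before the start, and in KIF11 these positions were 53 and 28 bases. In KIF14 the TTTGAA match began 1 base after the start. KIF2A, KIF2B and KIF2C had neither motif, and KIF20A and KIF22 had CCAAT only. A match describes these letters and is not a measured binding site.

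**Figure D3:**
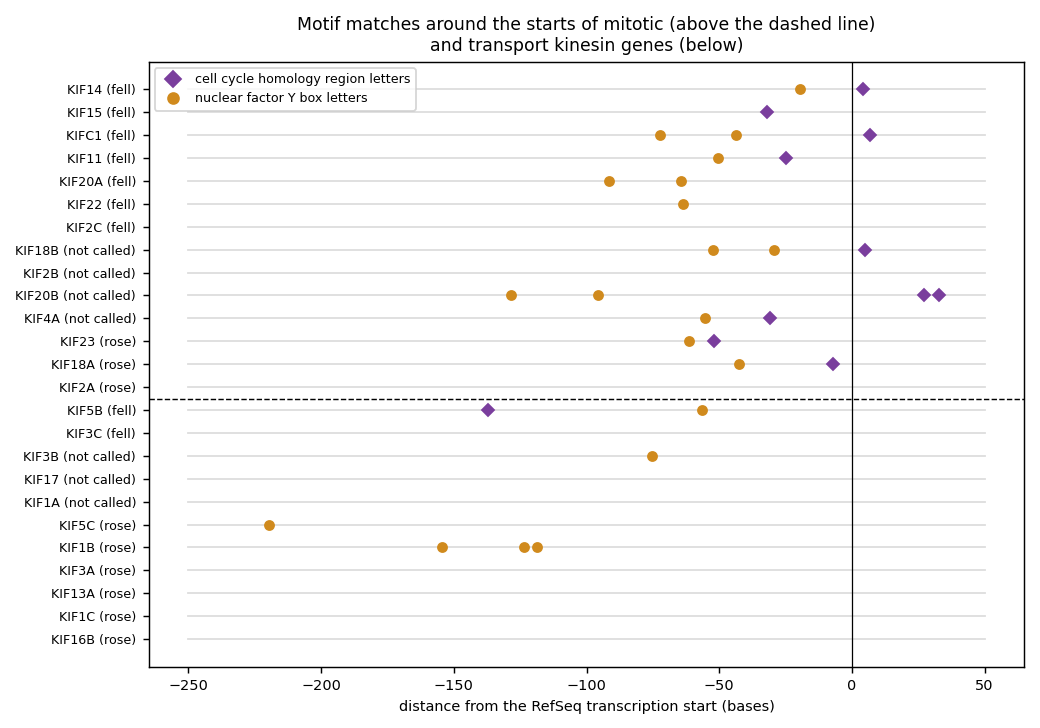
Position of motif matches on either strand (horizontal axis, bases from the RefSeq start of transcription) in the promoter windows of 14 mitotic and 11 transport kinesin genes, one row per gene, sorted by log2 difference within each class, with all windows of a gene on its row. Diamonds (CHR letters) lie in 9 mitotic rows and 1 transport row, and they occur among genes that fell, rose and did not pass.

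Among the transport kinesins, 6 of 15 rose, 2 fell and 7 did not pass, with a median log2 difference of 0.01. The share that changed was 53.3%, beside 34.1% of all genes tested. Of the 11 above the median intensity, 4 rose and 2 fell, beside 29.9% and 25.6% of all genes of that brightness, a share near the background. The median log2 difference of these 11 was -0.0024, beside 0.027 for all genes of that brightness. Those that rose, from the largest change down, were KIF16B, KIF1C, KIF13A, KIF3A, KIF1B and KIF5C, and those that fell were KIF5B and KIF3C. Calls of KIF16B, KIF1C, KIF13A, KIF3A, KIF5B and KIF3C held in all 16 alternative analyses.

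KIF5B fell on all 4 of its probe sets. It is the conventional kinesin heavy chain of most non-neuronal cells, where it carries mitochondria, lysosomes and many vesicles. On its brightest probe set it was at 1012, 939.5 and 1026 on the shPLEKHO1 arrays, against 1609, 1519 and 1559 on the shNC arrays, so that each shPLEKHO1 array lay far below each shNC array (log2 difference of -0.67 ± 0.06, limma adjusted p = 6.34e-05). The other probe sets were at -0.63, -0.43 and -0.46. KIF5A and KIF5C are its neuronal relatives. KIF5A averaged 84.5 ± 2.82 with shPLEKHO1 and 85.3 ± 15.7 with shNC (SD, n = 3), with overlapping groups and a wide 95% confidence interval of the log2 difference from -0.29 to 0.28. KIF5C averaged 31.8 ± 1.09 with shPLEKHO1 and 28.0 ± 1.65 with shNC (SD, n = 3). Its difference of 0.17 ± 0.05 passed (limma adjusted p = 0.031), but the call was lost in 9 of 16 alternatives. Among these were the omission of any array but shNC replicate 3, with limma adjusted p of 0.0822, 0.0543 and 0.0893 without each shPLEKHO1 array in turn, and of 0.0838 and 0.0603 without shNC replicates 1 and 2. The mean of its 4 probe sets was at 0.02.

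The largest rise among transport kinesins was that of KIF16B, which carries early endosomes and binds their lipids. It was at 117, 117 and 120.4 on the shPLEKHO1 arrays, against 75.3, 77.5 and 76.3 on the shNC arrays, with both groups tight and well separated (log2 difference of 0.62 ± 0.05, limma adjusted p = 3.51e-05), and its other probe set rose by 0.32 ± 0.08. KIF1C, which moves vesicles from the Golgi and integrins to the cell rear, was at 300.4, 301 and 294 on the shPLEKHO1 arrays, against 216, 206 and 202 on the shNC arrays, again without overlap (log2 difference of 0.53 ± 0.04, limma adjusted p = 6.97e-05). KIF13A carries recycling endosomes and receptors to the cell surface. It was at 57.9, 60.5 and 70.0 on the shPLEKHO1 arrays, against 48.8, 42.1 and 40.7 on the shNC arrays, more scattered on the log2 scale than KIF16B and KIF1C but without overlap (log2 difference of 0.51 ± 0.10, limma adjusted p = 0.00489). The other probe set of KIF13A rose by only 0.19 ± 0.06, and the mean of both was at 0.35. KIF13B, a close relative of KIF13A, was at 83.3 ± 4.15 with shPLEKHO1 and 83.4 ± 1.16 with shNC (SD, n = 3), and the 95% confidence interval of its difference ran from -0.13 to 0.13.

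KIF1B depended on the probe set that was read. The gene gives rise to a short and a long motor with different tails, known to carry mitochondria and synaptic vesicle precursors. Its brightest probe set was at 442, 417 and 449 on the shPLEKHO1 arrays, against 389.96, 363 and 369.5 on the shNC arrays, a log2 difference of 0.22 ± 0.05 (limma adjusted p = 0.0147). The second and the fourth probe sets by brightness rose as well, by 0.26 ± 0.05 and 0.47 ± 0.06. The third was at 91.6, 97.0 and 87.3 on the shPLEKHO1 arrays, against 118, 125 and 121 on the shNC arrays, without overlap and in the opposite direction (-0.39 ± 0.06). The fifth and sixth fell too, at -0.17 ± 0.05 and -0.39 ± 0.06, and the sixth averaged 14.1 ± 0.735 with shPLEKHO1 and 18.7 ± 1.09 with shNC (SD, n = 3). All 6 probe sets passed, 3 in each direction, and the mean over them was at -0.0020 (limma adjusted p = 0.977). The annotation ties the brightest probe set that rose and the brightest that fell to different RefSeq transcripts of KIF1B, and which form each probe set reads was not tested. The call of the brightest probe set was lost without shPLEKHO1 replicate 1 (limma adjusted p = 0.0531) or 3 (0.056). KIF1B was the only kinesin with probe sets called both ways.

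**Figure D4:**
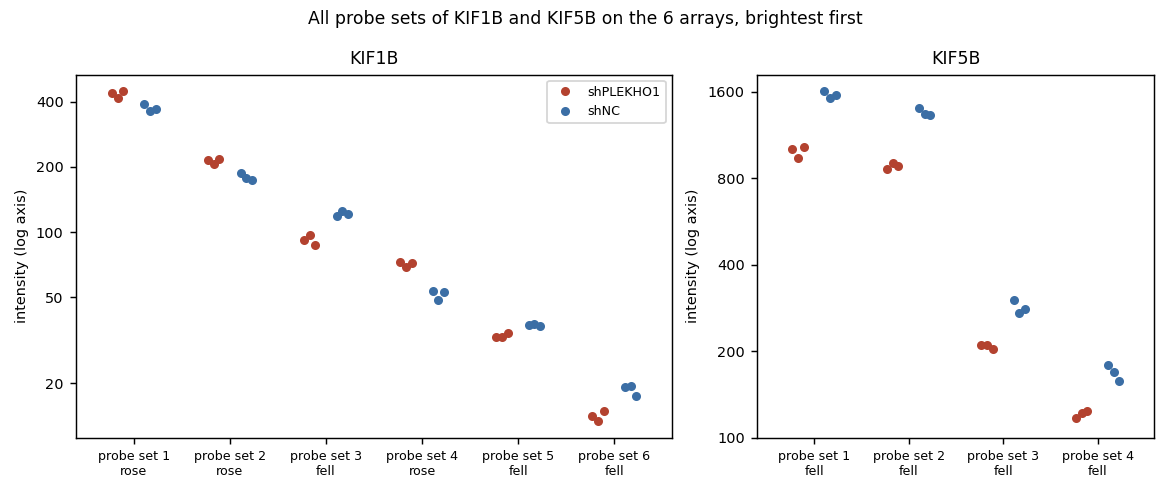
Intensity (log vertical axis) of all 6 probe sets of KIF1B (left panel) and all 4 of KIF5B (right panel) on the 6 arrays, brightest first, with shPLEKHO1 points left of shNC points. In KIF1B, 3 probe sets are higher and 3 lower on the shPLEKHO1 arrays, whereas all 4 of KIF5B are lower.

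Subunits of heterotrimeric kinesin, which drives intraflagellar transport in cilia and also moves vesicles, did not show the same change. KIF3A, a motor subunit, averaged 200.1 ± 6.18 with shPLEKHO1 and 152 ± 8.85 with shNC (SD, n = 3) and rose on all 3 of its probe sets (log2 difference of 0.41 ± 0.05 on the brightest, limma adjusted p = 0.000437). KIFAP3, the non-motor subunit that links the motors to cargo, was at 386, 372 and 379 on the shPLEKHO1 arrays, against 265, 275 and 280.4 on the shNC arrays, a rise of 0.48 ± 0.06 (limma adjusted p = 0.000349). KIF3B, the usual partner of KIF3A, was at 338 ± 14.8 with shPLEKHO1 and 339 ± 6.40 with shNC (SD, n = 3), with a 95% confidence interval of its log2 difference from -0.14 to 0.13, and 0 of its 4 probe sets passed in limma. KIF3C, which can take the place of KIF3B, averaged 103 ± 6.22 with shPLEKHO1 and 131 ± 6.89 with shNC (SD, n = 3) and fell by 0.34 on the log2 scale (± 0.06, limma adjusted p = 0.00341), with 2 of 3 probe sets down.

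Other transport kinesins did not pass. KIFC3, a minus-end motor of epithelial vesicles and junctions, was at 372, 387 and 374 on the shPLEKHO1 arrays, against 385, 373 and 384 on the shNC arrays, with overlapping groups. Its 95% confidence interval was narrow, from -0.11 to 0.09, and all 6 of its probe sets failed to pass in limma. KIFC2 was at -0.13 ± 0.06 and KIF1A, a motor of synaptic vesicle precursors, at 0.16 ± 0.08. KIF17, a motor of dendrites and cilia, averaged 27.1 ± 4.63 with shPLEKHO1 and 26.6 ± 2.82 with shNC (SD, n = 3).

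The 12 remaining kinesins held 2 that rose, 2 that fell and 8 that did not pass, with a median log2 difference of 0.02. The 33.3% that changed lay near the 34.1% of all genes tested. Only 4 of the 12 lay above the median intensity of all genes. The rises were in KIF7 and its paralog KIF27. KIF7, which organises the tip of the primary cilium and controls GLI transcription factors, averaged 40.5 ± 4.54 with shPLEKHO1 and 30.7 ± 1.34 with shNC (SD, n = 3), a log2 difference of 0.38 ± 0.09 (limma adjusted p = 0.0127). KIF27, which acts in motile cilia in mice, averaged 18.9 ± 0.718 with shPLEKHO1 and 14.1 ± 0.445 with shNC (SD, n = 3), a difference of 0.38 ± 0.04 (limma adjusted p = 0.000263). Each was read by a single probe set, and at the low intensity of KIF27 the difference was 0.21 with a pseudocount of 16.

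KIF12, a motor known from kidney and liver epithelium, fell. It averaged 112 ± 13.8 with shPLEKHO1 and 149 ± 6.08 with shNC (SD, n = 3), a log2 difference of -0.41 ± 0.10 (limma adjusted p = 0.0133). KIF21A, which restrains microtubule growth at the cell cortex, averaged 501 ± 11.6 with shPLEKHO1 and 558 ± 30.3 with shNC (SD, n = 3), a difference of -0.16 ± 0.05 (limma adjusted p = 0.0313), with 2 of 4 probe sets down. That call held only without shNC replicate 2 among the analyses that left out an array. The limma adjusted p was 0.093, 0.071 and 0.0567 without each shPLEKHO1 array in turn, 0.0778 without shNC replicate 1 and 0.107 without shNC replicate 3. With median centring it was 0.124. Its paralog KIF21B was at 0.12 ± 0.09.

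Other kinesins with roles in motile cilia, known mainly from mice, did not pass. KIF6 was at 22.7 ± 1.78 with shPLEKHO1 and 26.7 ± 1.73 with shNC (SD, n = 3), a log2 difference of -0.23 ± 0.08 (limma adjusted p = 0.0569). It passed without shPLEKHO1 replicate 3 (limma adjusted p = 0.0283) or shNC replicate 2 (0.0252). KIF9 averaged 325 ± 6.04 with shPLEKHO1 and 314 ± 27.5 with shNC (SD, n = 3), with a difference of 0.05 ± 0.08, and KIF19 was at 0.03 ± 0.07. The centriole kinesin KIF24 was at -0.04 ± 0.06, and KIF25 and KIF26A, at mean intensities of 12.7 or less in each group, were at -0.12 ± 0.08 and 0.00 ± 0.06. KIF26B, needed for kidney development in mice, was at 0.06 ± 0.10 on its brightest probe set. One of its other probe sets was at 31.7, 35.7 and 32.0 on the shPLEKHO1 arrays, against 18.6, 15.7 and 18.6 on the shNC arrays, a rise of 0.87 ± 0.09, while the other two did not pass. With the mean of its 4 probe sets, KIF26B rose by 0.25 (limma adjusted p = 0.0016).

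Proteins that work with mitotic kinesins were read next. Of 24 measured genes of this kind, 9 fell, 5 rose and 10 did not pass, with a median log2 difference of -0.06. All 24 lay above the median intensity of all genes, and the 58.3% that changed were near the 55.5% of all genes of that brightness. Among all genes of that brightness, 25.6% fell and 29.9% rose. CIT, the citron kinase that binds KIF14 at the midbody, was at 193, 198 and 184 on the shPLEKHO1 arrays, against 301, 288 and 286 on the shNC arrays, a log2 difference of -0.59 ± 0.05, with 1 of 2 probe sets down. PRC1, which cross-links midzone microtubules and binds KIF4A and KIF14, was at 1676, 1691 and 1702 on the shPLEKHO1 arrays, against 2370.3, 2302 and 2299.8 on the shNC arrays, a difference of -0.47 ± 0.04, with all 4 probe sets down. HMMR, a spindle protein, was at -0.53 ± 0.05. All 3 had a limma adjusted p of at most 0.000111, and none of their groups overlapped. Of the partners named here after their values were seen, RACGAP1 is the GTPase-activating subunit of centralspindlin and was at 383, 347 and 405 on the shPLEKHO1 arrays, against 574, 531 and 495 on the shNC arrays, a fall of 0.49 on the log2 scale (± 0.08, limma adjusted p = 0.00169), whereas its motor partner KIF23 rose. CENPE, a kinetochore kinesin whose symbol does not start with KIF and which was named for the same reason, was at 576, 568 and 559.8 on the shPLEKHO1 arrays, against 427, 432 and 456 on the shNC arrays, a rise of 0.38 ± 0.05 (limma adjusted p = 0.00101).

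Of 13 measured regulators of mitotic genes, 7 fell, 1 rose and 5 did not pass, with a median log2 difference of -0.31. Whether these regulators act on the kinesin genes in these cells was not tested. Among all genes tested 16% fell and 18.1% rose. Of the 10 regulators above the median intensity, 6 fell and 1 rose, beside 25.6% and 29.9% of all genes of that brightness. RBL2, the p130 pocket protein of the DREAM repressor, was at 142, 124 and 123 on the shPLEKHO1 arrays, against 381, 349 and 303 on the shNC arrays, a log2 difference of -1.39 ± 0.09 (limma adjusted p = 2.05e-05), and all 4 of its probe sets fell. E2F5, which partners such pocket proteins, was at -0.83 ± 0.05 (limma adjusted p = 1.01e-05), and TFDP1, the dimerization partner of the E2F factors, at -0.66 ± 0.05 (limma adjusted p = 3.34e-05).

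Light chains and adaptors of transport kinesins had 21 measured genes: 8 rose, 1 fell and 12 did not pass, and the median of their log2 differences was 0.13. Of the 16 above the median intensity, 8 rose and 1 fell, together a share near the 55.5% of all genes of that brightness. Both TRAK2, an adaptor between KIF5 motors and mitochondria, and RHOT1, its anchor on the outer mitochondrial membrane, rose. TRAK2 was at 445, 466 and 464 on the shPLEKHO1 arrays, against 370.1, 338 and 349.6 on the shNC arrays, a difference of 0.38 ± 0.04 (limma adjusted p = 0.000323). RHOT1 was at 0.40 ± 0.05 (limma adjusted p = 0.000449), and both genes rose on every one of their probe sets. KLC1, a light chain of KIF5 motors named after its values were seen, was at 0.23 ± 0.05 (limma adjusted p = 0.00647), with 2 probe sets up and 1 down among 5.

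Cytoplasmic dynein, the motor that runs opposite to most kinesins, its dynactin complex and its adaptors had 28 measured genes. Of these, 11 rose and 3 fell, and the median was 0.07. Of the 24 above the median intensity, 10 rose and 3 fell, beside 29.9% and 25.6% of all such genes. Both directions together were again near the 55.5% of all such genes. DYNC1H1, the dynein heavy chain, was at 1223, 1341 and 1245 on the shPLEKHO1 arrays, against 972, 886 and 895 on the shNC arrays, a log2 difference of 0.47 ± 0.05 (limma adjusted p = 0.00023), with all 4 probe sets up. The light chain DYNLL2 was at 0.52 ± 0.05 (limma adjusted p = 8.51e-05). PAFAH1B1, the dynein regulator LIS1, was at 0.59 ± 0.05 (limma adjusted p = 4.45e-05), although 3 of its 7 probe sets rose and 1 fell.

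Intraflagellar transport proteins, the cargo of the heterotrimeric kinesin, had 19 measured genes, of which 4 fell and 3 rose, and their median was -0.03. The 36.8% that changed were near the 34.1% of all genes tested. IFT22 was at 134, 137 and 138 on the shPLEKHO1 arrays, against 380.3, 357 and 382 on the shNC arrays, a log2 difference of -1.44 ± 0.05 (limma adjusted p = 1.20e-06) that was larger in size than that of any kinesin. IFT81 was at -0.83 ± 0.05 (limma adjusted p = 1.41e-05), on 1 of its 3 probe sets, and IFT57 at 0.42 ± 0.05 (limma adjusted p = 0.000282). Tubulins, the subunits of the kinesin track, had 14 measured genes, of which 4 rose and 1 fell, and their median was 0.04, and the 35.7% that changed were also near that share. TUBB6 was at 0.40 ± 0.04 (limma adjusted p = 0.00021), TUBA1A at 0.40 ± 0.05 (limma adjusted p = 0.000577) and TUBD1 at 0.52 ± 0.05 (limma adjusted p = 0.000175), but many tubulin genes are close copies of each other and their probe sets may read more than 1 gene.

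**Figure D5:**
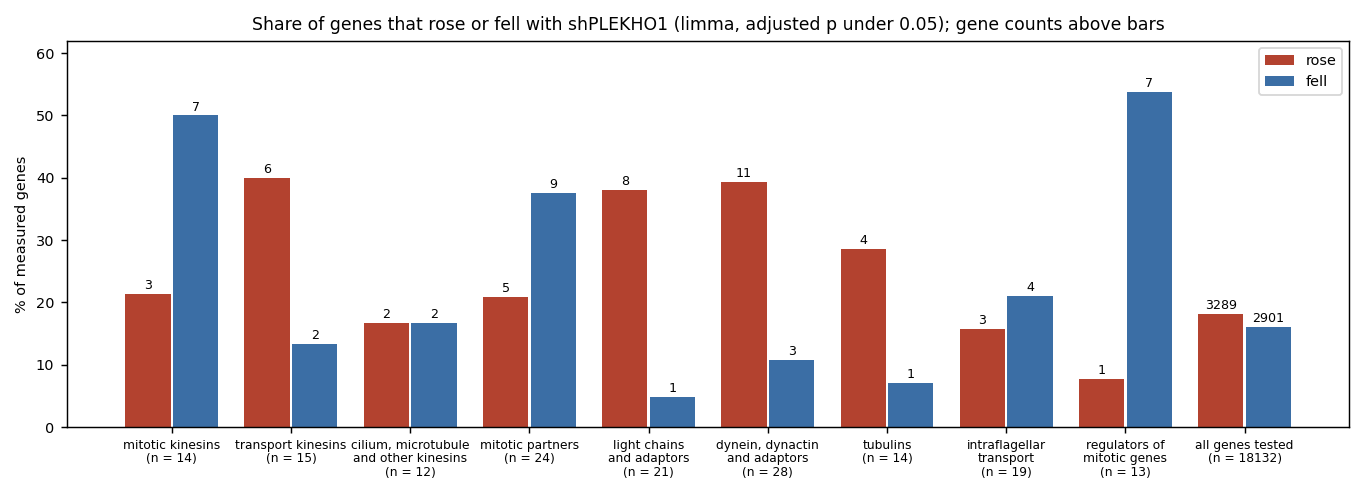
Share of measured genes (vertical axis, % from 0) that rose or fell with shPLEKHO1 in each kinesin class, in each related list and among all genes tested, with the number of genes above each bar and the number measured in the label. Mitotic kinesins show 3 that rose and 7 that fell, transport kinesins 6 and 2, and all genes 3289 and 2901.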

How the data were processed

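Biotin-labelled RNA was hybridised, per the labels' protocols. The submitters' processing notes name Affymetrix Expression Console, whose version, summarization and between-array normalization were not given in the sources used here. What the authors deposited are linear intensity values for 49395 probe sets, from 4.33 to 19770. The number of arrays limits the precision. No detection call was made, and background that remains can understate the folds of dim genes. Groups come from the sample titles.

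Values were taken as log2(intensity + 1) and quantile-normalized over all probe sets. Of 102 control probe sets, none entered the tests, nor did the 1832 probe sets with several symbols or those with none. The other 44988 gave 18132 genes, each read from the probe set with the highest mean deposited intensity. Symbols were updated through Entrez identifiers with RefSeq names (GRCh38.p14), which changed 0 kinesin names. The test of shPLEKHO1 against shNC was limma 3.58.1 (lmFit, eBayes; R 4.3.3) with no covariate, on 4 residual and 3.62 prior degrees of freedom. Calls used a Benjamini-Hochberg adjusted p under 0.05, over 18132 genes. Each probe set was also tested on its own over all 44988.

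The members, the class and related gene lists and the rules were chosen with earlier results of these data known. Per-array values are given for members called with an absolute log2 difference of at least 0.5, for the 3 brightest mitotic and transport members and for members with probe sets called both ways. Those of a dimmer KIF26B probe set are given outside these rules. From each related list up to 3 called genes with the smallest p are named. On simulated data over 18132 genes with the spread of these arrays, the test recovered 12% of genes changed by 0.25, 78% at 0.5, 94% at 1 and 100% at 2 on the log2 scale (50 genes each), and 5 of 147 calls were unchanged genes. The simulation changed far fewer genes than the 6190 called in these data. Adjustment is stricter when few genes change, so these shares can understate the recovery of small changes here. Alternatives were median centring, no normalization between arrays, no pseudocount or 16, leaving out the lowest 30% of genes, the mean of all probe sets, a robust fit with a variance trend, weighting of arrays, a replicate block, leaving out each array, and, added after seeing the data, the probe set with the highest mean log2 value. Protein sequences were not used here.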

Additional observations from a re-analysis of the deposited data

How the results depend on the processing

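Across 16 alternatives, 15 of the 22 called kinesins kept their call and direction wherever they were tested, and the other 7 were KIF1B, KIF20A, KIF21A, KIF22, KIF23, KIF2C and KIF5C. KIF1B was at -0.0020 with the mean of its probe sets, the only kinesin value that changed sign after a call. Of the kinesins not called, KIF26B passed with the mean of its probe sets and KIF6 in 3 alternatives. The same-numbered arrays of the groups deviated from their group means with correlations of -0.164, -0.156 and -0.0466 for replicates 1, 2 and 3, and 0 of 3 shPLEKHO1 arrays correlated best with its own number, so the numbers were not taken to pair the samples. With the replicate block, 7 kinesins fell (4 mitotic), 10 rose, and 1 of the cilium and other class fell. That class also had 1 that fell with median centring and 1 that rose without the dimmest genes, which leaves 8 of its members. When 1 array was left out, the number of kinesins that fell ranged from 8 to 12 and that rose from 9 to 10, with 5 to 7 and 2 to 3 among the mitotic and 2 and 4 to 6 among the transport kinesins. In the cilium and other class, 1 to 3 fell and 2 rose. The median log2 difference of the mitotic kinesins stayed between -0.17 and -0.13. That of the transport kinesins ranged from -0.0091 to 0.12 without an array, and was 0.079 without the dimmest genes and 0.085 with array weights. That of the cilium and other class ranged from -0.015 to 0.033 without an array. With the mean of probe sets, 0 light chain and adaptor genes fell. PLEKHO1 ranged from -0.37 to -0.25 without an array. The probe set with the highest mean log2 value differed for 44 genes, of which 0 were kinesins. Quantile normalization and the pseudocount of 1 limit how far small differences of dim kinesins can be read.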
